A study of Mus musculus with 42 samples.

Results

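Stromal cells of the testis interstitium are recognised by a shared set of transcripts, and 10 of them, *Pdgfra*, *Pdgfrb*, *Dcn*, *Lum*, *Efemp1*, *Ccdc80*, *Mamdc2*, *Cd248*, *Clec3b* and *Gsn*, were examined here in RNA-seq counts of sorted mouse testis cells. The genes are 10 of the 27179 in the count table. They were chosen by their counts, as stromal genes that were mostly much higher in control Thy1+ than in control c-Kit+ libraries, so that this difference between the control libraries is given below as a description, without a test. All 10 were found by their Entrez identifiers and had at least 108 counts in each of the 12 libraries, and all of them passed the filter on low counts in every comparison.

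The libraries were made from cells of male mice at 10 days postpartum (dpp), with 3 libraries in each of 4 groups. Controls were *Ddx4-Cre*; *Chd8* +/F, mutants were their *Ddx4-Cre*; *Chd8* F/- littermates on a C57BL/6J background, and both therefore carried the Cre transgene and a floxed allele of *Chd8*, a gene that encodes a chromatin remodeler. *Ddx4* drives Cre in germ cells, whereas the deleted allele (-) of the mutants is present in every cell, including stromal cells. Cells were bound to magnetic beads through c-Kit, an antigen of differentiating spermatogonia, and the unbound cells were then bound through Thy1, an antigen of undifferentiated spermatogonia that fibroblasts of many tissues also carry. Before the sort, the study digested the tissue with collagenase to remove interstitial cells, passed it through a strainer to remove Sertoli cells and let somatic cells adhere. It checked the purity of both populations by immunostaining, RT-qPCR and RNA-seq, and described it as largely matching the high purity of earlier reports. The methods state that 3 pups were used for an analysis but not whether each library came from separate pups, so that p-values measure the spread between these libraries, which may in part be technical.

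Library totals ranged from 32266861 to 45396233 counts. Levels are given as CPM, counts on a common scale after TMM normalization, and as CPM per kilobase of exon (RPKM) where genes are compared with each other. Differences were tested across all genes with edgeR's quasi-likelihood test, p-values were adjusted by the Benjamini-Hochberg procedure (FDR), and a call required an FDR under 0.05 together with a log2 fold change beyond 0.5 in either direction. The sorting antigen gene *Thy1* had 12.6 ± 1.40 CPM (SD, n = 3) in Thy1+ libraries of controls and 14.6 ± 2.45 CPM in those of mutants, against 0.685 ± 0.248 and 0.889 ± 0.161 CPM in c-Kit+ libraries. *Kit* had 288 ± 111 and 316 ± 104 CPM in Thy1+ libraries, against 666 ± 45.6 and 744 ± 56.2 CPM in c-Kit+ libraries. *Chd8* had between 269 ± 9.41 and 305 ± 9.48 CPM in the 4 groups, and counts summed over the whole gene do not check a deletion that is limited to some of its exons.

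Stromal cells are mesenchymal cells that build and maintain the connective tissue around the seminiferous tubules. They receive growth signals of the platelet-derived growth factor (PDGF) family through the receptor tyrosine kinases PDGFRα and PDGFRβ, and they secrete collagens together with the proteoglycans and glycoproteins that organise collagen fibrils. Germ cells are enclosed in the tubules with Sertoli cells, whereas stromal cells, Leydig cells, vessels and macrophages lie outside the tubules.

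The promoters of *Pdgfra*, *Efemp1* and *Gsn*, the members held by the RefSeq promoter table (GRCm38.p6), are shown because these genes moved together across the libraries while their levels differed widely. Each line gives the 250 bases before the start of transcription on the plus strand, at chr5:75152001-75152250 for *Pdgfra*, chr11:28852955-28853204 for *Efemp1* and chr2:35256109-35256358 for *Gsn* (of 3 starts of *Gsn* in the table, the one nearest to the first exon of the count table). Capitals mark matches on either strand to CANNTG (E-box), TGANTCA (AP-1), GGGCGG (GC box), CCAAT and TATAAA.
Pdgfra promoter: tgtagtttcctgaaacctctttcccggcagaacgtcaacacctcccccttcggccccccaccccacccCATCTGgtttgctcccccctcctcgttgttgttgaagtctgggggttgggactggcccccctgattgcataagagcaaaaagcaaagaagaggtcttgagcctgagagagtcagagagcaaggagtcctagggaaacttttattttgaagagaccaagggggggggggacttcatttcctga
Efemp1 promoter: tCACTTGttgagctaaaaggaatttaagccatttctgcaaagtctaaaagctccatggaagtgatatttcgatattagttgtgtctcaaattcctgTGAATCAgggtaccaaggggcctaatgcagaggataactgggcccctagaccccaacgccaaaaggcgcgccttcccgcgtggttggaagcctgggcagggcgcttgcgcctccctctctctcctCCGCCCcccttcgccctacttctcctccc
Gsn promoter: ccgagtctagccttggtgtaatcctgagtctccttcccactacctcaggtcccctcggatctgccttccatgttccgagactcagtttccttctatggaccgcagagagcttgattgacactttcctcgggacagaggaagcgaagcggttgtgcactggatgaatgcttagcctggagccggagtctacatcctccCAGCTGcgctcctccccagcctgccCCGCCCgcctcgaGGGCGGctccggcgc
An E-box was present in each of the 3 stretches, as in 66.2% of the 32805 promoter stretches of this length in the table. A GC box was present once in *Efemp1* and 2 times in *Gsn* but not in *Pdgfra* (32.7% of all stretches), and the AP-1 letters were present only in *Efemp1* (6.76%). None of the 3 held CCAAT (33.8%) or TATAAA (12.4%). Such matches describe letters and do not show binding. The other 7 members (*Pdgfrb*, *Dcn*, *Lum*, *Ccdc80*, *Mamdc2*, *Cd248* and *Clec3b*) have no entry in the table.

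The PDGF receptor genes were the members with the smallest and the largest difference between the control populations. *Pdgfra* (gene ID 18595; chromosome 5, 75152291 to 75198204), which encodes the receptor that marks interstitial mesenchyme, had 198, 207 and 143 CPM in replicates 1, 2 and 3 of control c-Kit+ libraries, 428, 323 and 321 CPM in mutant c-Kit+, 1189, 988 and 1372 CPM in control Thy1+ and 1561, 1273 and 1957 CPM in mutant Thy1+ libraries. The 2 populations did not overlap, and the control mean was 6.48 times as high in Thy1+ as in c-Kit+ libraries. *Pdgfrb* (gene ID 18596; chromosome 18, 61045150 to 61085067), which encodes the receptor typical of pericytes and other mural cells, had 5.82, 5.49 and 5.40 CPM in control c-Kit+, 11.7, 9.20 and 9.67 CPM in mutant c-Kit+, 108, 71.1 and 85.5 CPM in control Thy1+ and 131, 91.7 and 129 CPM in mutant Thy1+ libraries. Its control mean was 15.8 times as high in Thy1+ libraries.

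*Dcn* and *Lum* encode decorin and lumican, small leucine-rich proteoglycans that bind collagen fibrils, and they lie 47.3 kb apart on chromosome 10. *Dcn* (gene ID 13179; 97479500 to 97518162) had 169, 165 and 131 CPM in control c-Kit+, 303, 250.1 and 274 CPM in mutant c-Kit+, 1509, 1121 and 1569.7 CPM in control Thy1+ and 1747, 1406 and 2146 CPM in mutant Thy1+ libraries. *Lum* (gene ID 17022; 97565501 to 97572703) had 3.81, 5.15 and 3.51 CPM in control c-Kit+, 11.3, 8.76 and 6.77 CPM in mutant c-Kit+, 52.8, 47.5 and 52.4 CPM in control Thy1+ and 89.6, 78.6 and 109 CPM in mutant Thy1+ libraries. Control and mutant libraries did not overlap for *Lum* in either population, which held for no other member except *Efemp1*. The next genes of the same family on this chromosome, *Kera* and *Epyc*, were nearly silent: *Kera*, 34.5 kb from *Lum*, had at most 0.194 CPM in any library and *Epyc* at most 1.98 CPM.

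The other matrix genes had intermediate levels. *Efemp1* (gene ID 216616; chromosome 11, 28853205 to 28926743), which encodes the elastic fibre protein fibulin-3, had 15.7, 13.3 and 12.9 CPM in control c-Kit+, 30.0, 28.2 and 26.4 CPM in mutant c-Kit+, 116, 101 and 127 CPM in control Thy1+ and 136, 129 and 171 CPM in mutant Thy1+ libraries. The lowest mutant library lay above the highest control library in both populations, but only narrowly in Thy1+ libraries (129 against 127 CPM). *Ccdc80* (gene ID 67896; chromosome 16, 45094053 to 45127924), the gene of a secreted matrix-associated protein, had 15.8, 14.6 and 13.8 CPM in control c-Kit+, 31.3, 21.8 and 28.4 CPM in mutant c-Kit+, 138, 104 and 135 CPM in control Thy1+ and 155, 129 and 177 CPM in mutant Thy1+ libraries. *Mamdc2* (gene ID 71738; chromosome 19, 23302609 to 23448322), which encodes a proteoglycan with MAM domains, had the lowest level, with 3.14, 3.57 and 3.22 CPM in control c-Kit+, 6.11, 5.45 and 5.499 CPM in mutant c-Kit+, 45.9, 32.9 and 44.0 CPM in control Thy1+ and 53.0, 40.5 and 63.4 CPM in mutant Thy1+ libraries. Both genes separated the genotypes in c-Kit+ libraries, whereas in Thy1+ libraries their genotypes overlapped.

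*Cd248* and *Clec3b* both encode proteins with a C-type lectin-like domain. *Cd248* (gene ID 70445; chromosome 19, 5068078 to 5070640), the gene of the stromal and pericyte surface protein endosialin, had 22.0, 22.9 and 16.0 CPM in control c-Kit+, 29.4, 32.3 and 32.5 CPM in mutant c-Kit+, 250.02, 192 and 249 CPM in control Thy1+ and 248, 218 and 315 CPM in mutant Thy1+ libraries. *Clec3b* (gene ID 21922; chromosome 9, 123150946 to 123157432), which encodes the plasminogen-binding protein tetranectin, had 15.8, 16.4 and 14.6 CPM in control c-Kit+, 13.4, 17.0 and 17.0 CPM in mutant c-Kit+, 211, 159 and 240.0 CPM in control Thy1+ and 163, 148 and 198 CPM in mutant Thy1+ libraries. *Clec3b* was the only member whose control and mutant c-Kit+ libraries overlapped. *Gsn* (gene ID 227753; chromosome 2, 35256359 to 35307902), which encodes the actin-severing protein gelsolin and is used by many cell types, had 88.6, 88.6 and 70.9 CPM in control c-Kit+, 123, 124 and 133 CPM in mutant c-Kit+, 939.6, 706 and 1012 CPM in control Thy1+ and 844, 734 and 1057 CPM in mutant Thy1+ libraries.

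**Figure D1:**
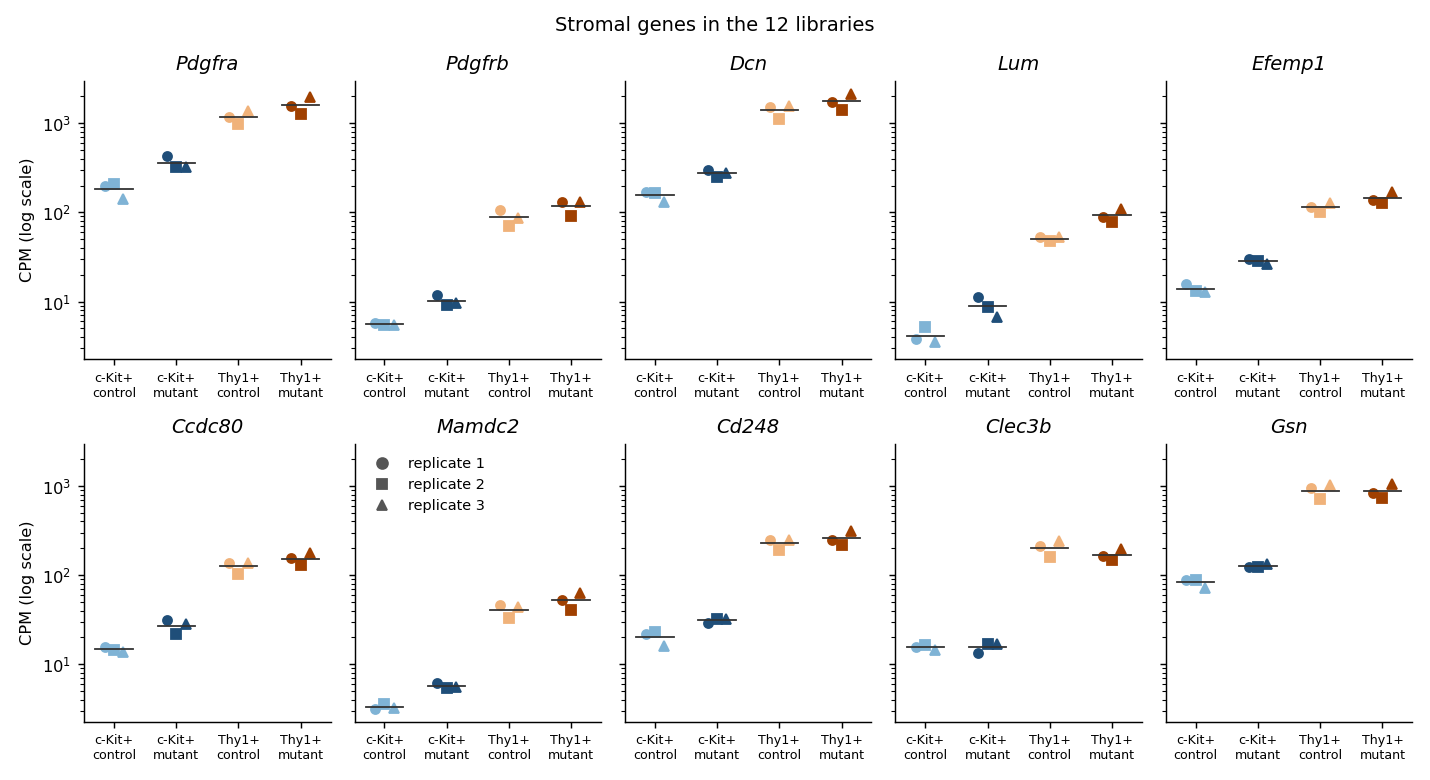
CPM (log scale) of the 10 stromal genes in the 12 libraries, by group, with a symbol for each replicate number and a line at the mean of 3 libraries. Every Thy1+ library lies above every c-Kit+ library for each gene, mutant c-Kit+ libraries lie above control c-Kit+ libraries for all genes except *Clec3b*, and replicate 2 is the lowest in both Thy1+ groups.

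For all 10 members the control Thy1+ libraries lay above the control c-Kit+ libraries, a separation found for 29.5% of all tested genes and one by which the members were picked. Summed over the members, the level was 3522 to 4886 CPM in control Thy1+ and 414 to 542 CPM in control c-Kit+ libraries. Those are bulk values, in which more cells of a type cannot be told apart from more RNA of that type per cell.

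Per kilobase of exon, *Dcn* was the highest member in every group. In control Thy1+ libraries it had 672 ± 117 RPKM (SD, n = 3), which placed it 46th among the 27179 genes of the table, followed by *Gsn* (302 ± 54.4 RPKM), *Clec3b* (205 ± 41.2 RPKM) and *Pdgfra* (176 ± 28.5 RPKM). *Gsn* and *Clec3b*, and *Clec3b* and *Pdgfra*, overlapped between libraries and were therefore not separated in this order. Below them stood *Cd248* (89.8 ± 12.9 RPKM), *Efemp1* (56.2 ± 6.39 RPKM), *Ccdc80* (34.4 ± 5.16 RPKM), *Lum* (24.5 ± 1.43 RPKM), *Pdgfrb* (16.3 ± 3.42 RPKM) and *Mamdc2* (12.3 ± 2.103 RPKM), of which only *Pdgfrb* and *Mamdc2* overlapped. In control c-Kit+ libraries *Dcn* had 74.3 ± 9.85 RPKM and ranked 892nd, *Gsn* (28.1 ± 3.47 RPKM) and *Pdgfra* (27.1 ± 5.15 RPKM) overlapped behind it, and *Clec3b* (15.7 ± 0.966 RPKM) lay below both. *Pdgfrb* (1.03 ± 0.0410 RPKM) and *Mamdc2* (0.993 ± 0.0686 RPKM) were again the lowest and overlapped.

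The rule for the choice names the control libraries and not the mutant ones, so the same difference between populations was tested in mutants, although the genes were proposed with earlier results of all 12 libraries known. All 10 members were called higher in mutant Thy1+ than in mutant c-Kit+ libraries, against 15.3% of the 17346 genes tested, and no library overlapped, against 23.3% of the tested genes. The log2 fold change was largest for *Pdgfrb* at 3.57 (SE 0.17; FDR = 1.3e-05, quasi-likelihood test of edgeR, Benjamini-Hochberg adjusted), the pericyte-type receptor, and smallest for *Pdgfra* at 2.20 (SE 0.18; FDR = 6.2e-05, same test). The median of the members was 2.96 (7.79-fold), whereas the median of all tested genes was -0.031. *Clec3b* (3.46), *Lum* (3.41), *Mamdc2* (3.24) and *Cd248* (3.09) stood in the upper range. *Gsn* (2.83), *Dcn* (2.72), *Ccdc80* (2.54) and *Efemp1* (2.41) stood below them, with an SE between 0.12 and 0.20 for the 10 genes. In the control libraries, which were used for the choice, the corresponding values ran from 2.72 (*Pdgfra*) to 4.01 (*Pdgfrb*) with a median of 3.49. Of all genes called in the mutant comparison, 2653 were higher in Thy1+ libraries and 872 were lower, and scaling by library size only gave 2393 and 1390, with all 10 members called under either scaling.

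**Figure D2:**
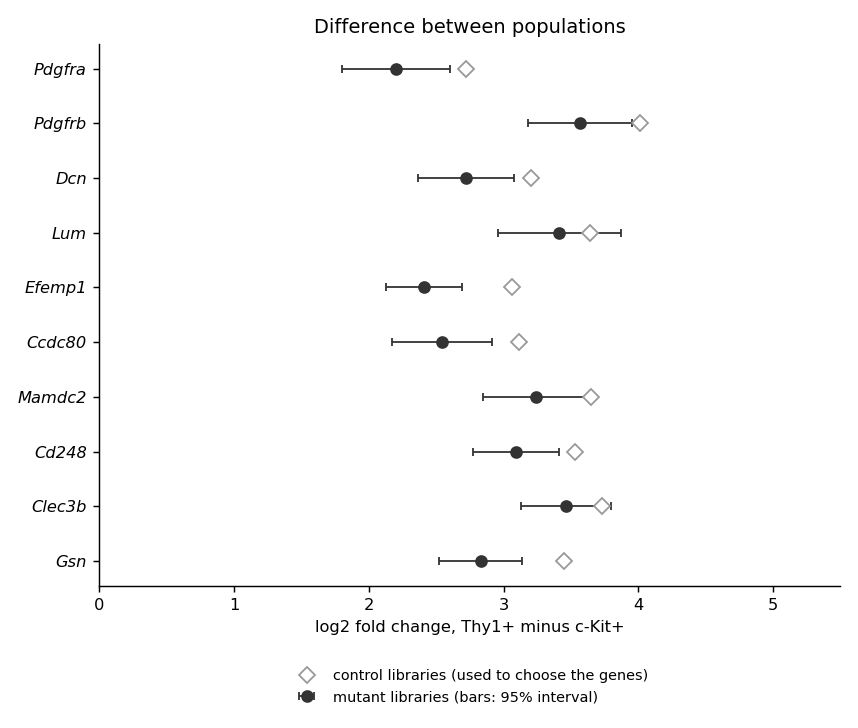
Log2 fold change between Thy1+ and c-Kit+ libraries for each gene, in mutants (filled circles, with 95% intervals of the quasi-likelihood fit) and in controls (open diamonds, no test because they chose the genes). The mutant values run from 2.20 to 3.57; the control values, from 2.72 to 4.01, were used by the choice of the genes, which favours a larger value in controls than in mutants.

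In c-Kit+ libraries, 9 of the 10 members were called higher in mutants than in controls, and *Clec3b* was the exception. Of all 17134 genes tested, 14.8% were called higher. The 9 called members were also those whose control and mutant libraries did not overlap, which was the case, with mutants higher, for 31.6% of all tested genes. The median of the members was a log2 fold change of 0.79 (1.73-fold), and that of all tested genes was 0.011. The control libraries of this comparison are among those by which the genes were chosen for low c-Kit+ counts, which favours higher values in mutants.

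*Lum* had the largest increase, at 1.05 on the log2 scale (SE 0.22; FDR = 0.00419, quasi-likelihood test of edgeR, Benjamini-Hochberg adjusted), and its mean rose 2.15 times, although all its c-Kit+ libraries had at most 383 counts. *Efemp1* rose by 0.96 (SE 0.11; FDR = 2.9e-04, same edgeR test) and *Pdgfra* by 0.91 (SE 0.15; FDR = 0.00102). *Ccdc80* (0.82), *Pdgfrb* (0.81), *Dcn* (0.77) and *Mamdc2* (0.72) followed, with SE from 0.10 to 0.16 and FDR from 4.3e-04 to 0.00654. The smallest called increases were those of *Cd248* (0.57, SE 0.13) and *Gsn* (0.56, SE 0.09). Both fell below the minimum of 0.5, at 0.43 and 0.46, when control replicate 3 was left out, the control library that was lowest for 9 of the 10 members. *Mamdc2* was not called, with an FDR of 0.0563 by the edgeR test, when replicate 1 of both genotypes was left out. For *Clec3b* the log2 fold change was -0.036 (SE 0.12; FDR = 0.841, same edgeR test), with a 95% interval from -0.31 to 0.24, which lies below the estimate of each of the other 9 members.

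In Thy1+ libraries no member was called between the genotypes (0% of 17416 genes were called higher by edgeR's quasi-likelihood test, which gave 2151 genes an unadjusted p under 0.05, while DESeq2 called 52 genes higher and 326 lower). 8 of the 10 members were higher in mutants, with a median log2 fold change of 0.35 (1.27-fold) beside 0.025 for all tested genes, and only *Lum* and *Efemp1* did not overlap between genotypes, a separation found for 6.51% of tested genes. An unadjusted p under 0.05 was reached by *Lum*, *Efemp1* and *Pdgfra*. *Lum* had 0.87 (SE 0.13; 95% interval 0.56 to 1.18; FDR = 0.144, quasi-likelihood test of edgeR, Benjamini-Hochberg adjusted), whereas *Clec3b* had -0.25 (interval -0.63 to 0.12) and *Gsn* -0.0050 (interval -0.40 to 0.39). The spread was shared between genotypes: replicate 2 was the lowest Thy1+ library for 10 of 10 members in controls and again for 10 of 10 in mutants. The control libraries of this comparison are among those by which the genes were chosen for high Thy1+ counts. That choice favours lower values in mutants.

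Thy1+ libraries of the same replicate number deviated together across all genes, and a paired fit, blocked by replicate number, was therefore made as well. In this paired fit *Lum* was called at 0.86 (SE 0.07; FDR = 1.4e-06, quasi-likelihood test of edgeR, Benjamini-Hochberg adjusted), with 3.20% of all genes called higher. *Lum* was also called by DESeq2, by edgeR's exact test and in the fit of all 12 libraries, at adjusted p from 1.4e-05 to 0.0356. Without a minimum on the fold change, 9 of 10 members, and 29.2% of all tested genes in either direction, had an FDR under 0.05 in the paired fit. Of these, 8 were higher in mutants, from 0.18 (*Cd248*) to 0.86 (*Lum*). *Clec3b* was lower at -0.25 (SE 0.06; FDR = 0.0034, same edgeR test), and *Gsn* had -0.0056 with a 95% interval from -0.12 to 0.11. The paired fit used the same control libraries, so that the choice of the genes favours lower mutant values here as well.

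**Figure D3:**
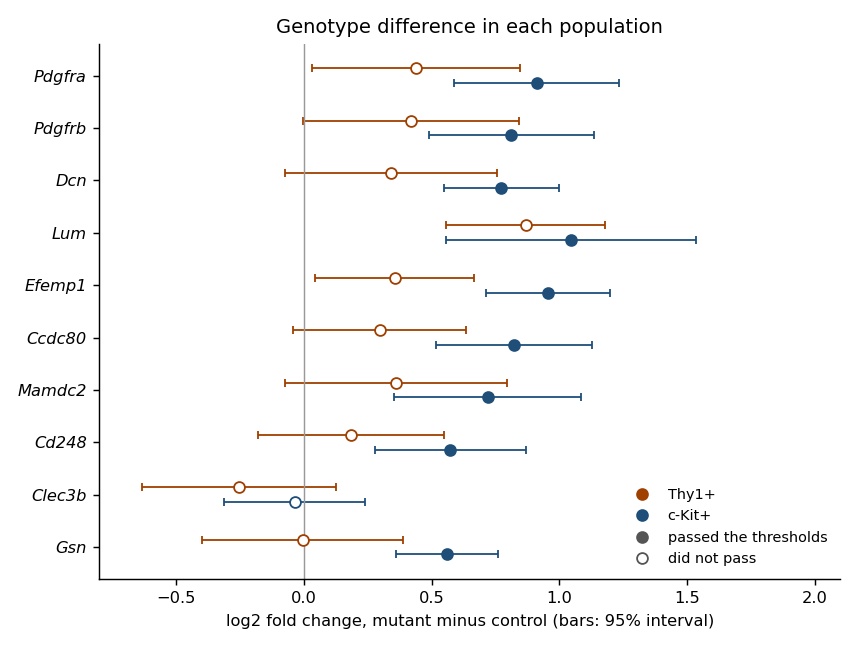
Log2 fold change between mutant and control libraries of each gene in Thy1+ and in c-Kit+ cells, with 95% intervals of the fit without a replicate block, filled where the gene passed the thresholds. In c-Kit+ cells 9 genes lie between 0.56 and 1.05 and *Clec3b* at -0.036, and in Thy1+ cells the values run from -0.25 (*Clec3b*) to 0.87 (*Lum*).

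The genotype difference in c-Kit+ minus that in Thy1+ libraries equals the difference between populations in controls minus that in mutants, and since the genes were chosen for a large difference in controls, its sign is favoured by the choice and is given as a description. It was positive for all 10 members and called for none (0% of 18002 genes were called higher by edgeR's interaction test, in which 1804 genes had an unadjusted p under 0.05, and DESeq2 called 44 higher and 20 lower). The largest value was that of *Efemp1*, at 0.67 (SE 0.18). *Gsn* (0.63, SE 0.21) and *Ccdc80* (0.59, SE 0.22) followed, and *Lum* had the smallest value (0.24, SE 0.26), which was -0.066 without replicate 1 of every group. The median was 0.48, beside 0.083 for all tested genes.

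The composition of the stromal signal was expressed as each member's percentage of the summed RPKM of the 10 genes in a library. *Dcn* held the largest share in all 12 libraries, with 41.9% to 43.0% in control and 44.6% to 46.3% in mutant Thy1+ libraries, and 43.8% to 44.8% in control and 44.9% to 47.1% in mutant c-Kit+ libraries, so that it was higher in mutants of both populations. *Clec3b* made up 12.5% to 13.5% in control and 8.93% to 9.84% in mutant Thy1+ libraries, and 8.78% to 10.3% in control and 4.38% to 6.40% in mutant c-Kit+ libraries, so that its share was lower in mutants in both populations without overlap. *Gsn* also had a lower share in mutants in both populations, with 18.7% to 19.2% against 15.9% to 16.5% in Thy1+ and 16.7% to 16.9% against 13.6% to 16.1% in c-Kit+ libraries. The share of *Lum* was 1.41% to 1.78% in control and 2.36% to 2.50% in mutant Thy1+ libraries, whereas its ranges overlapped in c-Kit+ libraries (1.02% to 1.37% against 1.16% to 1.77%). *Pdgfra* held 10.5% to 11.4% in control and 12.5% to 13.0% in mutant Thy1+ libraries, and its ranges met in c-Kit+ libraries (14.8% to 17.0% against 16.9% to 20.6%). The share of *Efemp1* was 3.62% to 4.43% in control and 4.60% to 5.18% in mutant c-Kit+ libraries, and those of *Pdgfrb*, *Ccdc80*, *Mamdc2* and *Cd248* overlapped between genotypes in both populations. Shares also differed between the populations, *Pdgfra* holding more and *Clec3b* less of the sum in c-Kit+ than in Thy1+ libraries of the same genotype. These 6 genes were singled out after their values were seen, the shares of 1 library sum to a fixed total, and with 3 libraries against 3 an exact permutation test cannot give a two-sided p below 0.1.

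**Figure D4:**
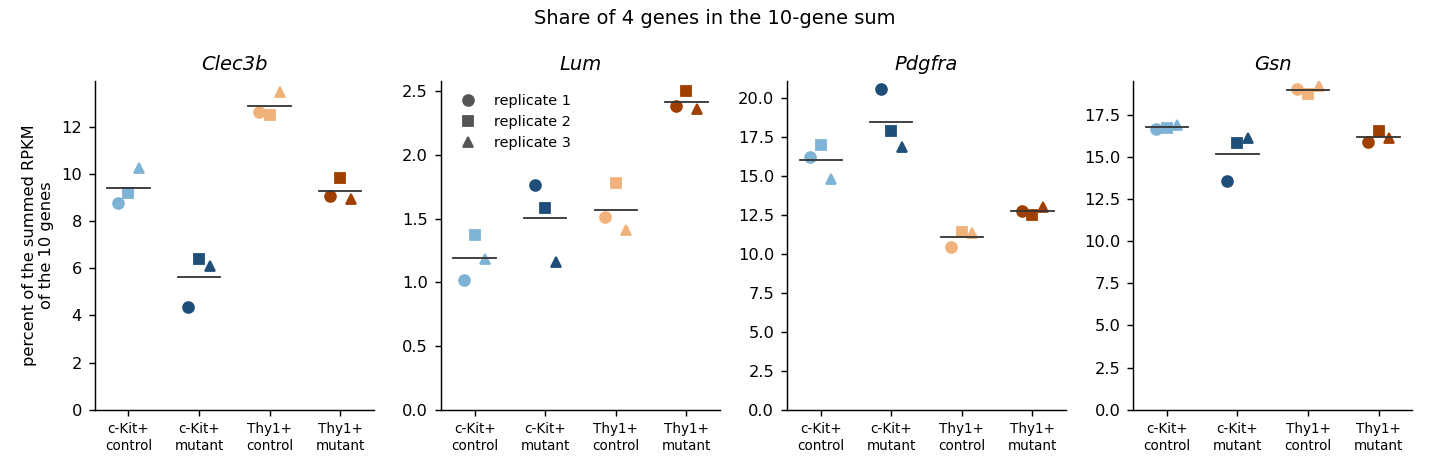
Percentage of the summed RPKM of the 10 genes that *Clec3b*, *Lum*, *Pdgfra* and *Gsn* held in each library, by group, with a symbol for each replicate number and a line at the mean. *Clec3b* and *Gsn* lie lower in mutants of both populations, and *Lum* lies higher in mutant Thy1+ libraries at 2.36% to 2.50%.

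Across the 12 libraries each member followed the mean of the other 9 closely, with Pearson's r of log2 CPM from 0.970 (*Clec3b*) to 0.999 (*Dcn*). Those values largely restate the difference between populations for which the genes were picked, and after subtraction of the group means r ran from 0.586 (*Lum*) to 0.986 (*Dcn*), with *Clec3b* at 0.644 and *Gsn* at 0.922. Among 13666 other genes whose mean log2 CPM reached 1, the 10 most like the members in their pattern over the 12 libraries were *Fzd2*, *Cxcl12*, *Emp2*, *Thbs2*, *Col6a3*, *Ecm2*, *Fstl1*, *Col1a1*, *Maob* and *Arap1*. *Fzd2*, which encodes a Wnt receptor, had an r of 0.999 and 9.57, 16.0, 72.1 and 89.6 CPM on average in control c-Kit+, mutant c-Kit+, control Thy1+ and mutant Thy1+ libraries. *Cxcl12*, a chemokine gene, had 38.0, 70.5, 380.2 and 471 CPM, and *Col1a1*, which encodes a chain of type I collagen, had 301, 519, 2541 and 3112 CPM. Of the 13666 genes, 1579 had an r over 0.9, and the libraries share populations, genotypes and replicate numbers.

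The 4 PDGF ligand genes formed 2 pairs in the c-Kit+ genotype comparison, in which 14.8% of all tested genes were called higher. Like both receptor genes, *Pdgfc* and *Pdgfd* were called higher in mutant c-Kit+ libraries, at a log2 fold change of 1.21 (SE 0.18) and 1.27 (SE 0.17; FDR = 4.5e-04, quasi-likelihood test of edgeR, Benjamini-Hochberg adjusted). *Pdgfd* rose from 5.11 ± 0.241 to 12.9 ± 2.61 CPM and *Pdgfc* from 4.83 ± 1.17 to 11.6 ± 1.03 CPM. *Pdgfa* and *Pdgfb*, at -0.19 (SE 0.13) and -0.19 (SE 0.12), did not pass the test. Between the mutant populations, where both receptors differed by over 2 on the log2 scale, *Pdgfd* was called higher in Thy1+ libraries at 0.75 (SE 0.21), and *Pdgfa* (-0.38), *Pdgfb* (0.14) and *Pdgfc* (-0.13) were not called.

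*Pdgfra* lies 377 kb before *Kit* on chromosome 5, and *Pdgfrb* 20.5 kb before *Csf1r* on chromosome 18, each beside another receptor gene of the same class. *Pdgfra* and *Kit* differed between the mutant populations in opposite directions, at 2.20 and -1.19 (SE 0.21), and *Kit* had 0.10 (SE 0.07) between genotypes in c-Kit+ libraries, where *Pdgfra* had 0.91. *Csf1r*, the receptor gene of macrophages, was called higher in mutant Thy1+ than mutant c-Kit+ libraries, at 1.74 (SE 0.21), a smaller value than that of *Pdgfrb* (3.57), and had 0.76 (SE 0.32; FDR = 0.0836, quasi-likelihood test of edgeR, Benjamini-Hochberg adjusted) between genotypes in c-Kit+ libraries. None of the 3 class members other than the PDGF receptors, *Kit*, *Csf1r* and *Flt3*, was called in that comparison.

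Relatives of the other members were read from lists by protein family, again beside 14.8% of all tested genes called higher. Among 12 tested small leucine-rich proteoglycan genes other than *Dcn* and *Lum*, 4 were called higher in mutant c-Kit+ libraries and 0 lower, with *Prelp* (0.91), *Ecm2* (0.86) and *Bgn* (0.80) the largest and a list median of 0.68. Of 7 fibulin and hemicentin genes besides *Efemp1*, 2 were called higher, *Fbln5* (0.87) and *Fbln2* (0.71), with a median of 0.27. Of 4 tested relatives of *Cd248* and *Clec3b*, 3 were called higher, *Cd93* (1.59), *Clec14a* (1.43) and *Thbd* (0.82). Of 7 gelsolin relatives 1 was called higher (*Svil*, 0.69), of 2 relatives of *Ccdc80* 1 was (*Srpx2*, 0.91), and of 3 genes with MAM domains 0 were, where the median was 0.03.

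A list of 25 other stromal genes gave a count close to that of the members. In c-Kit+ libraries 21 of 25 were called higher in mutants and 0 lower, with a median of 0.80 and *Dpp4* (1.34), *Timp3* (0.97) and *Timp2* (0.89) the largest. The 4 that were not called, named after their values were seen, were *Pi16* (-0.50, SE 0.22), *Mfap5* (0.10, SE 0.22), *Dpt* (0.42, SE 0.17) and *Ly6a* (0.93, SE 0.54). In the Thy1+ genotype comparison 0 of 25 were called, with a median of 0.27, and 21 of 25 were called higher in mutant Thy1+ than mutant c-Kit+ libraries, with a median of 2.14. Of all tested genes, 0% and 15.3% were called higher in these comparisons.

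Markers of several other somatic cell types were also called higher in mutant c-Kit+ libraries. In that comparison 14.8% of all tested genes were called higher. All 8 Sertoli markers were called higher in mutants (median 1.16), and their summed level was 598 to 1611 CPM in control and 2512 to 2773 CPM in mutant c-Kit+ libraries. Endothelial markers were called higher in 7 of 8 (80.3 to 114 CPM against 156 to 239 CPM), Leydig markers in 4 of 6 (626 to 1220.3 CPM against 1155 to 1997 CPM), peritubular myoid markers in 3 of 6 (47.0 to 64.5 CPM against 92.5 to 113 CPM), pericyte markers in 2 of 5 (30.0 to 37.3 CPM against 50.7 to 63.7 CPM), macrophage markers in 2 of 8 (23.4 to 60.6 CPM against 60.9 to 84.5 CPM) and mast cell markers in 3 of 4 tested (12.5 to 33.5 CPM against 41.9 to 59.1 CPM). Macrophage and pericyte markers were nearest to the share of all genes. Of 8 germ cell markers 0 were called higher and 2 lower, with a median of -0.30 and sums of 3283 to 3854 CPM in control and 2596 to 2976 CPM in mutant c-Kit+ libraries. Of all 17134 genes tested, 1270 were called lower. None of the 8 germ cell markers had a log2 fold change above 0. The list includes *Sycp3*, whose mean fell from 163 to 66.0 CPM in mutants, and *Stra8*, which fell from 556 to 365 CPM. The study reports both genes as down-regulated in mutant spermatogonia, and CHD8 as bound at the *Sycp3* promoter. Whether the lower germ cell sum reflects fewer germ cells or lower levels of such genes was not tested. The summed level of the members was 414 to 542 CPM in control and 820 to 988 CPM in mutant c-Kit+ libraries. The part of these other cell types in the result on the members was not tested.

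Between the mutant populations the lists moved apart. Of all 17346 genes tested there, 15.3% were called higher in Thy1+ libraries and 872 genes were called lower. Like the members, all 5 pericyte and all 8 macrophage markers and 5 of 6 peritubular myoid markers were called higher in Thy1+ libraries. All 6 Leydig and all 4 tested mast cell markers were called lower, and 0 of 8 Sertoli markers were called in either direction. Endothelial markers were called higher in 3 of 8 and lower in 0, with a median of -0.098. Of 8 germ cell markers 0 were called higher and 4 lower, with a median of -0.54. Sertoli markers stood out in replicate 1 of the Thy1+ groups, with a sum of 2290 CPM against 471 and 510 CPM in the other control libraries and 3030 CPM against 964 and 998.9 CPM in the other mutant libraries, whereas the members were lowest in replicate 2. Without replicate 1 of every group all 10 members were still called higher in mutant Thy1+ than mutant c-Kit+ libraries. Germ cell markers were present throughout, with sums of 1475 to 2899 CPM in Thy1+ libraries, in which the 10 members summed to 3522 to 6323 CPM. These sums cover different genes, and the members were chosen for high Thy1+ counts, so that the sums do not measure proportions of cells.

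**Figure D5:**
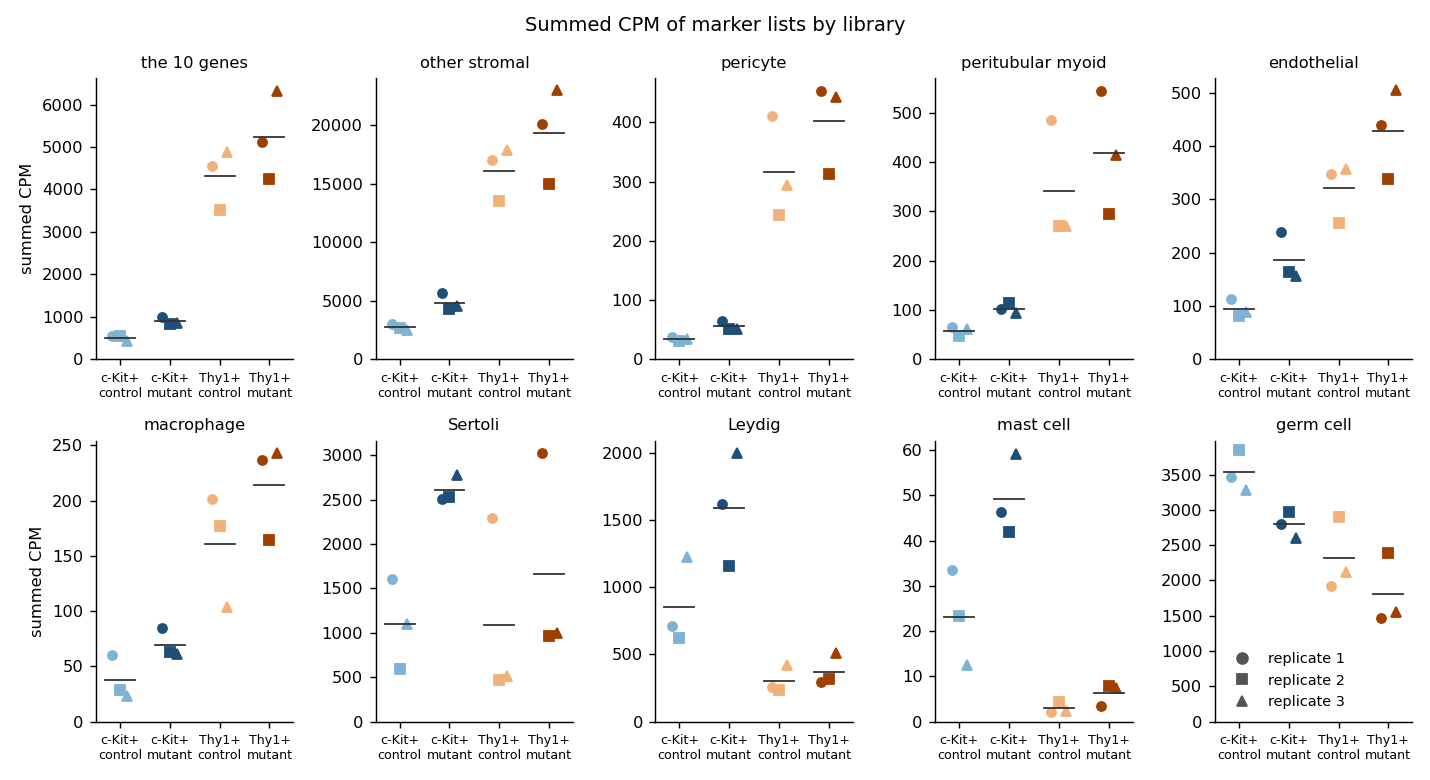
Summed CPM of the 10 stromal genes and of marker lists in each of the 12 libraries, by group, with a symbol for each replicate number and a line at the mean; each panel has its own axis from 0. The 10 genes, the other stromal genes and the pericyte and myoid markers are highest in Thy1+ libraries, Leydig and mast cell markers in c-Kit+ libraries, and germ cell markers are lower in mutants on average.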

How the data were processed

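RNA-seq counts of 12 libraries were used. The authors used Trimmomatic 0.39 for trimming, HISAT2 2.1.0 for alignment to mm10 and featureCounts (2.0.3 in the file header) for counting on RefSeq exons, and deposited raw counts per gene without normalization. The counting command names no strand option although the library kit is directional, so overlapping genes could share reads, but no member overlaps another gene. Even numbers made up 65.6% to 69.5% of the values from 1 to 19, as when both mates of a pair are counted, so fragments are fewer than counts. Of 27179 genes, 25275 were given a symbol by gene ID, and genes without one held 0.511% to 0.776% of a library's counts.

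The members and gene lists were chosen with earlier results of these data known. The text names the 10 members, the sorting antigens, *Chd8*, the PDGF ligands and class III receptors, *Kera* and *Epyc*, from every other list at most 3 genes called between genotypes in c-Kit+ libraries with the largest change, and the 10 genes most like the members. Mutants and controls were compared in each population, and the mutant populations with each other, by fits of the 6 libraries concerned, and the difference of the genotype differences by an interaction term in a fit of all 12 libraries. The test was the quasi-likelihood test of edgeR 4.0.16 (R 4.3.3) after TMM scaling and filterByExpr, with calls at an FDR under 0.05 and a log2 fold change beyond 0.5 in either direction (for the interaction, FDR alone). The SE of a log2 fold change was derived from its F statistic, and log2 CPM used a prior count of 2.

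The deviations of same-numbered libraries from their group means correlated with r from 0.267 to 0.492 across the Thy1+ genotypes, where differently numbered ones had -0.386 to -0.0405, and from 0.101 to 0.125 across the c-Kit+ genotypes, where the others had -0.0654 to -0.0386. The same-numbered values were over the limit of 0.1 for treating them as paired. The labels do not say what a shared number means. Between the mutant populations 1 of 3 pairs and in the interaction 10 of 18 pairs passed that limit, and these were not treated as paired. On simulated counts in which 200 genes differed by 1.5 on the log2 scale, the test recovered 194 in Thy1+ (17262 genes), 192 in c-Kit+ (16963 genes), 197 between the mutant populations (17172 genes) and 178 in the interaction (17656 genes). The simulated counts had the same spread in every comparison and no shared replicate effects. That spread was below the one fitted to the real Thy1+ libraries, so that recovery there may be overstated. Recovery of smaller differences was not tested, and the members' median was 0.35 between genotypes in Thy1+ libraries and 0.48 in the interaction.

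Alternatives were DESeq2 1.42.0, DESeq2's size factors within edgeR, no TMM scaling, no filter, a filter of 1 CPM in 3 libraries, the replicate block, edgeR's exact test, all 12 libraries in a single fit, calls without the fold minimum and each library left out. Leaving out replicate 1 or 2 of every group, and the block without a minimum on the fold change, were added after seeing the data. The 30 ChIP samples were not used here.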

Additional observations from a re-analysis of the deposited data

How the results depend on the processing

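In the replicate block fits, in which libraries of the same number are paired, the counts of members called were 9 between genotypes in c-Kit+ libraries and 10 between the mutant populations, as without the block, and the median control log2 difference was 3.48. Between genotypes in Thy1+ libraries 1 member (*Lum*) was called in place of 0 with the block, with DESeq2, with the exact test and in the fit of all 12 libraries, and 9 with the block and no minimum on the fold change. The block also called 1 member (*Efemp1*) in the interaction, where the numbers were not treated as paired and where it called 422 genes higher and 24 lower among all genes. The sign of the interaction was favoured by the choice of the genes. Leaving out 1 library at a time gave 7 to 9 members called between genotypes in c-Kit+ libraries (7 without control replicate 3), 0 to 0 in Thy1+ libraries and in the interaction, 10 to 10 between the mutant populations and a median control difference of 3.34 to 3.58. Log2 fold changes near 0 changed sign. That of *Gsn* in Thy1+ libraries was 0.0250 to 0.0971 without 1 library (control replicate 1 or 3, or mutant replicate 1 or 2; lowest -0.17 of all leave-one-out fits) and 0.065 without replicate 1 of both groups. That of *Clec3b* in c-Kit+ libraries was 0.022 in the fit of all 12 libraries, 0.066 without mutant replicate 1 (from -0.096 over all such fits) and 0.065 without replicate 1 of both groups. The interaction of *Lum* was -0.066 without replicate 1 of every group. The cause of these changes was not tested.

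All members passed the filter on low counts, and their lowest count in any library was 108. The part of depth in their spread was not tested. With 3 libraries a group and shared replicate effects, the unpaired Thy1+ fit had a biological coefficient of variation of 20.9%, against 8.30% in the paired fit, 12.1% in c-Kit+ libraries and 16.0% between the mutant populations. Scaling by library size only shifted the median of all genes by at most 0.086 on the log2 scale.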
